A study of Mus musculus with 12 samples.

Results

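Voltage-gated calcium channels were followed in the mouse frontal cortex through 10 of their genes: 8 that encode a pore-forming alpha1 subunit (Cacna1a, Cacna1b, Cacna1c, Cacna1d, Cacna1e, Cacna1g, Cacna1h and Cacna1i) and 2 that encode an alpha2delta subunit (Cacna2d1 and Cacna2d3). They were found by their symbols, as the rows of the count table whose Ensembl identifiers carry these symbols. All 10 were found among 47069 rows, and all 10 were among the 17286 genes with enough counts to be tested.

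RNA came from the frontal cortex of both hemispheres (source given as prefrontal cortex) of male C57BL/6 mice, and the 12 libraries form 4 groups of 3. Knockout clozapine (libraries 3, 4 and 5) and knockout vehicle (libraries 2, 4 and 5) came from mice of genotype HDAC2(loxP,loxP), CamKIIa-Cre(+,-), treated with chronic clozapine at 10 mg/kg or with vehicle. Wild-type clozapine (libraries 2, 3 and 5) and wild-type vehicle (libraries 1, 3 and 4) were given the same treatments. Clozapine is an antipsychotic drug that binds many monoamine and muscarinic receptors, and Hdac2 encodes a histone deacetylase, which removes acetyl groups from histones. The CamKIIa promoter drives Cre mainly in excitatory forebrain neurons, so other cells of the tissue keep the floxed gene. Age, length of treatment and whether animals were pooled are not given in the sources used here, and the labels do not say that libraries came from separate animals, so the p-values speak only of variation among these libraries.

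Total counts per library lay between 23408372 and 28069638. Hdac2 itself was at 70.5 to 73.9 CPM in knockout clozapine and 73.3 to 76.6 CPM in knockout vehicle, against 72.4 to 75.5 CPM in wild-type clozapine and 63.4 to 75.7 CPM in wild-type vehicle, where CPM is the count scaled by library size. For Hdac2 the log2 difference between knockout and wild type was 0.11 under vehicle (SE 0.06, edgeR adjusted p = 0.277) and -0.04 under clozapine (SE 0.06, edgeR adjusted p = 0.804). A whole-gene count still includes any exons the deletion leaves, so it cannot show whether the floxed ones were lost, and every direction between genotypes rests on the labels. Wild-type vehicle 3 stood apart in choroid plexus markers, which summed to 59.9 CPM there and to 3.43 to 9.66 CPM in the other 11 libraries.

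Voltage-gated calcium channels open when the membrane depolarises and let calcium into the cell, where it triggers transmitter release, shapes firing and starts signals to the nucleus. The alpha1 subunit forms the pore and sets the channel type. L-type channels (Cacna1c, Cacna1d) sit mostly on cell bodies and dendrites and couple activity to transcription, P/Q-type (Cacna1a) and N-type (Cacna1b) channels drive release at nerve terminals, R-type channels (Cacna1e) act in dendrites, spines and terminals, and T-type channels (Cacna1g, Cacna1h, Cacna1i) open near the resting potential and support burst firing. Alpha2delta subunits bring the pore to the membrane, and Cacna2d1 is a binding site of gabapentin.

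One member that fell in the genotype comparison described below, Cacna1c, is read from several promoters, and the bases before each start are printed because the gene's count adds up transcripts from all of them. The set of RefSeq promoters used here held 7 of the 10 members, with 10 starts in all, on GRCm38.p6. It had no entry for Cacna1a, Cacna1g or Cacna1h, so no bases could be printed for the other members that fell. That gap belongs to the set used and does not mean that these genes lack a known promoter. For each Cacna1c start 170 bases are given, ending 80 bases before the start, 5′ to 3′. Capitals mark a GC box (GGGCGG) or a half-site of the cyclic AMP response element (TGACG), searched on both strands. Overlapping GC boxes run together.
Cacna1c most upstream start, chr6:119196490-119196659, minus strand: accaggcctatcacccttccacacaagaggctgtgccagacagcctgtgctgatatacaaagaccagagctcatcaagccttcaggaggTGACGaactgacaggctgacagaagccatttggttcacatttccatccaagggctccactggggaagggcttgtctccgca
Cacna1c middle start, chr6:119108576-119108745, minus strand: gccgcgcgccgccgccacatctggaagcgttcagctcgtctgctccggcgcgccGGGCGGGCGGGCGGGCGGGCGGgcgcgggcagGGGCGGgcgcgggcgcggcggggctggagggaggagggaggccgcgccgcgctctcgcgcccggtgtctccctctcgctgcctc
Cacna1c most downstream start, chr6:118758055-118758224, minus strand: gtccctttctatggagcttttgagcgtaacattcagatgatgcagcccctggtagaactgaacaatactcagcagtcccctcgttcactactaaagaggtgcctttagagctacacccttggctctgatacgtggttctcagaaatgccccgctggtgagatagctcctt
The middle start had 6 GC boxes and 83.5% G and C, against 0 GC boxes at both other starts, where G and C made up 54.1% (most upstream) and 49.4% (most downstream). Among 32851 promoter windows of this length, 19.5% held a GC box and 9.86% held TGACG. The full element TGACGTCA was in 0.493% of windows and in 0 of these 3. A match describes the letters of the window and is not a measured binding site, and the deposited counts per gene cannot tell which start was used.

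Per exonic length, Cacna1a gave the highest level of the 10 genes and Cacna1d the lowest. In TPM, the count per base of a gene's merged exons scaled to the library, Cacna1a averaged 62.9 ± 6.51 over the libraries (SD, n = 12), Cacna2d1 53.0 ± 2.77, Cacna1i 50.3 ± 6.43 and Cacna2d3 46.2 ± 2.83. Cacna1b followed at 40.7 ± 3.94 TPM and Cacna1g at 37.6 ± 4.32 TPM. A step lay below these 6: the lowest Cacna1g library had 32.9 TPM, and the highest library of the next gene, Cacna1h, had 21.7 TPM. Cacna1h averaged 15.8 ± 3.31 TPM, Cacna1e 15.4 ± 2.08, Cacna1c 10.8 ± 1.27 and Cacna1d 8.98 ± 0.815 TPM.

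Several neighbours in this order could not be separated. The level of Cacna2d1 was above that of Cacna1i in 6 of 12 libraries, and that of Cacna1h above that of Cacna1e in 7 of 12. Cacna1a exceeded Cacna2d1 in all 12 libraries, Cacna1g exceeded Cacna1h in all 12, and Cacna1c exceeded Cacna1d in 11 of 12. The order also depends on the length used: over the longest transcript alone Cacna2d3 was at 89.6 TPM and came first, ahead of Cacna1a at 74.4 TPM and Cacna2d1 at 72.7 TPM. Cacna1d was last by either length.

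**Figure D1:**
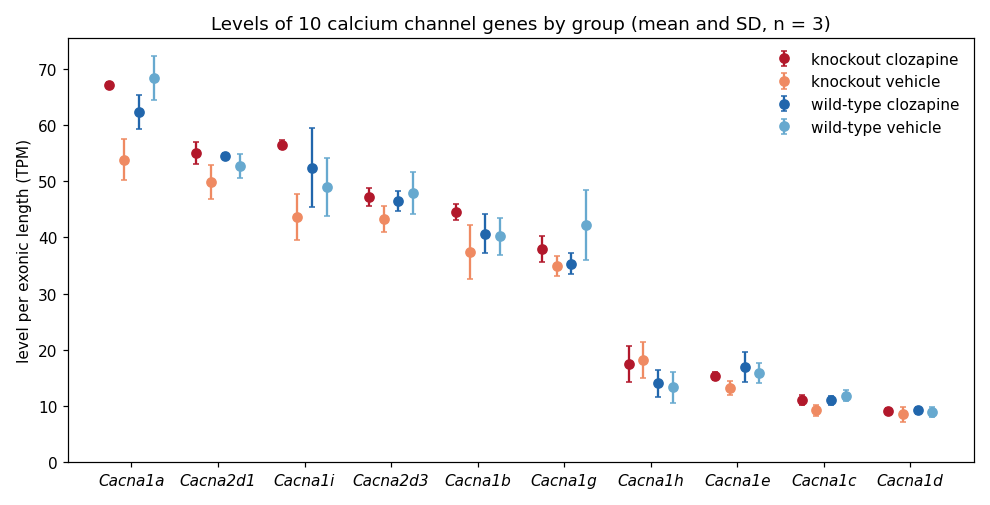
Level of each gene per exonic length (TPM, vertical axis from 0) in the 4 groups, in order of the mean over all libraries; points are means and bars SD of 3 libraries. The first 6 genes average 37.6 TPM or more and the other 4 average 15.8 TPM or less, and for Cacna1a knockout vehicle is the lowest of the 4 groups.

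By channel class, the presynaptic and R-type genes (Cacna1a, Cacna1b and Cacna1e) made up 49.0% ± 1.07 of the summed TPM of the 8 pore genes in knockout clozapine and 47.7% ± 0.673 in knockout vehicle, and 49.5% ± 0.926 in wild-type clozapine and 49.9% ± 1.56 in wild-type vehicle (SD, n = 3 each). The T-type genes made up 43.2% ± 0.916, 44.2% ± 0.873, 42.1% ± 0.700 and 41.8% ± 1.69 in the same order. The L-type genes made up 7.82% ± 0.173, 8.10% ± 0.281, 8.40% ± 0.233 and 8.32% ± 0.130. The shares also depend on the length used. Over the longest transcript alone the T-type genes made up from 37.0% (wild-type vehicle) to 39.7% (knockout vehicle). Cacna1a, Cacna1b and Cacna1e then made up from 50.8% (knockout vehicle) to 53.2% (wild-type vehicle). No test was run on these shares. The summed TPM of Cacna1a, Cacna1b and Cacna1e was 104.4 ± 9.59 in knockout vehicle against 124.4 ± 8.77 in wild-type vehicle.

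Under vehicle, 3 pore genes were lower in the knockout than in wild type. Cacna1a, of the P/Q-type channel (ENSMUSG00000034656.16, chromosome 8, 84388440 to 84640246 on build GRCm38), had 214.5, 215.6 and 195.9 CPM in knockout vehicle, against 259.5, 268.5 and 254.1 CPM in wild-type vehicle. The highest knockout library lay below the lowest wild-type one. Its log2 difference was -0.32, with an SE of 0.05 and a 95% interval from -0.43 to -0.21 (edgeR quasi-likelihood test with BH adjustment over all tested genes, adjusted p = 0.00179). Cacna1a passed under all 23 alternatives tried, with adjusted p up to 0.0287, and without wild-type vehicle 3 its difference was -0.30 (edgeR adjusted p = 0.0135).

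Cacna1c, the main L-type pore gene of the cortex (ENSMUSG00000051331.14, chromosome 6, 118587240 to 119196418), was at 73.9, 66.5 and 59.0 CPM in knockout vehicle, against 82.0, 88.7 and 80.4 CPM in wild-type vehicle. Again the groups did not overlap, although the knockout libraries spread widely, with an SD of 7.49 CPM. The difference was -0.33 (SE 0.08, edgeR adjusted p = 0.0145). Leaving out wild-type vehicle 3 (edgeR adjusted p = 0.0759, difference -0.29) or knockout vehicle 5 (0.0552) lost the call for Cacna1c.

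Cacna1g, a T-type pore gene (ENSMUSG00000020866.17, chromosome 11, 94408391 to 94474198), was at 122.7, 122.3 and 115.0 CPM in knockout vehicle, against 126.9, 158.8 and 141.6 CPM in wild-type vehicle. The groups did not overlap, but the gap between knockout vehicle 2 and wild-type vehicle 1 was small and wild-type vehicle 3 lay highest. The difference was -0.25 (SE 0.07, edgeR adjusted p = 0.0352). For Cacna1g the call was lost without wild-type vehicle 3 (edgeR adjusted p = 0.187, difference -0.16), wild-type vehicle 4 (0.0668), knockout vehicle 2 (0.0755), knockout vehicle 4 (0.0557) or knockout vehicle 5 (0.114), with 1 surrogate variable (0.0576) and in a fit of these 2 groups alone (0.0757), and it passed in 15 of 23 alternatives.

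The other 7 members did not pass under vehicle. Cacna1e was at 102.0 to 122.4 CPM in knockout vehicle and 125.1 to 144.3 CPM in wild-type vehicle, also without overlap, with a difference of -0.24 (SE 0.11, edgeR adjusted p = 0.182). Cacna1h was the only member with a positive difference, 0.47 (SE 0.19, edgeR adjusted p = 0.159): its knockout vehicle libraries had 59.0, 70.1 and 52.1 CPM, against 36.5, 41.9 and 52.2 CPM in wild-type vehicle, so that the lowest knockout library lay just under the highest wild-type one. Cacna1b, Cacna1d, Cacna1i, Cacna2d1 and Cacna2d3 had differences between -0.14 (Cacna1i) and -0.04 (Cacna1d). The interval for Cacna2d1 ran from -0.18 to 0.07.

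In that comparison 3 of 10 members fell and 0 rose, where over all genes tested 9.16% passed, 5.15% lower and 4.01% higher. In 4 members, the 3 called ones and Cacna1e, all knockout libraries lay below all wild-type ones, as in 14.1% of all genes. The members' median difference was -0.13, beside 0.00 over all tested genes. Long genes had a median below 0 as well: the 2152 tested genes with at least as many exonic bases as the shortest member (8720) had a median of -0.07, 32.8% of them were positive and 15.5% were called. After a correction of each library for exonic length and GC content the same 3 members were called, Cacna1a at -0.26 (edgeR adjusted p = 0.00397), Cacna1c at -0.21 (0.0467) and Cacna1g at -0.19 (0.0417), and the members' median was -0.08.

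**Figure D2:**
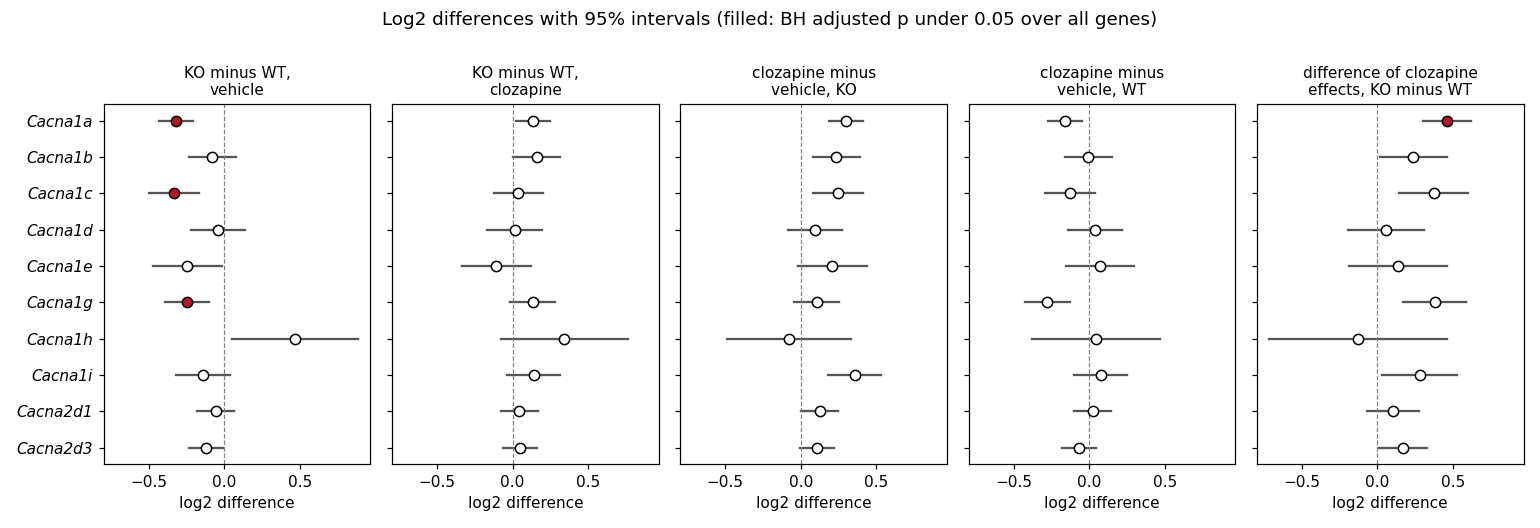
Log2 difference of each member (horizontal axis) in 5 comparisons, with 95% intervals from edgeR; filled points have a BH adjusted p under 0.05 over all genes. Cacna1a, Cacna1c and Cacna1g are filled for knockout minus wild type under vehicle, and Cacna1a, at 0.46, for the difference between the clozapine effects.

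Under clozapine none of the 10 members passed between the genotypes. Cacna1a was at 249.2, 257.2 and 264.2 CPM in knockout clozapine and at 241.2, 239.9 and 220.0 CPM in wild-type clozapine, without overlap and with a difference of 0.14 (SE 0.05, edgeR adjusted p = 0.212). Cacna1b was at 146.5 to 149.9 CPM in knockout clozapine and 121.8 to 144.0 CPM in wild-type clozapine (difference 0.16, SE 0.07, edgeR adjusted p = 0.305). Here 9 of 10 differences were positive, with a median of 0.09, the exception being Cacna1e at -0.11 (SE 0.11). Of all tested genes 48.7% were positive, with a median of -0.005, and of the genes as long as the members 45.5%, with a median of -0.015. At an unadjusted p under 0.05 the count was 2 members, both higher and both without overlap (11.8% of all genes lay apart in that direction). DESeq2 and limma-voom called 0. Over all genes 2.0% passed in edgeR and 15.9% had an unadjusted p under 0.05. After the length and GC correction 8 of the members' differences were positive and 2 negative, with a median of 0.07. The comparisons under vehicle and under clozapine use different libraries, and whether they differ is the interaction tested below.

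Averaged over both treatments, 0 members passed between the genotypes by edgeR, where 10.5% of all tested genes did. Cacna1h had the largest difference of the 10, at 47.3 to 70.1 CPM over the 6 knockout libraries and 36.2 to 52.2 CPM over the 6 wild-type libraries, with a difference of 0.41 (SE 0.13, edgeR adjusted p = 0.085). Cacna1h was also the most variable member, with a coefficient of variation of 15.1% to 18.3% within groups. Cacna1c differed by -0.15 (SE 0.06, edgeR adjusted p = 0.097). At an unadjusted p under 0.05 there were 4 members, 1 higher and 3 lower, beside 25.5% of all genes. DESeq2 called 1 (Cacna1h, adjusted p = 0.0331) and limma-voom 0. Single libraries moved these calls: Cacna1h passed without wild-type vehicle 4 (edgeR adjusted p = 0.0379), Cacna1e without wild-type clozapine 5 (0.0318) and Cacna1c without knockout vehicle 2 (0.0359).

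**Figure D3:**
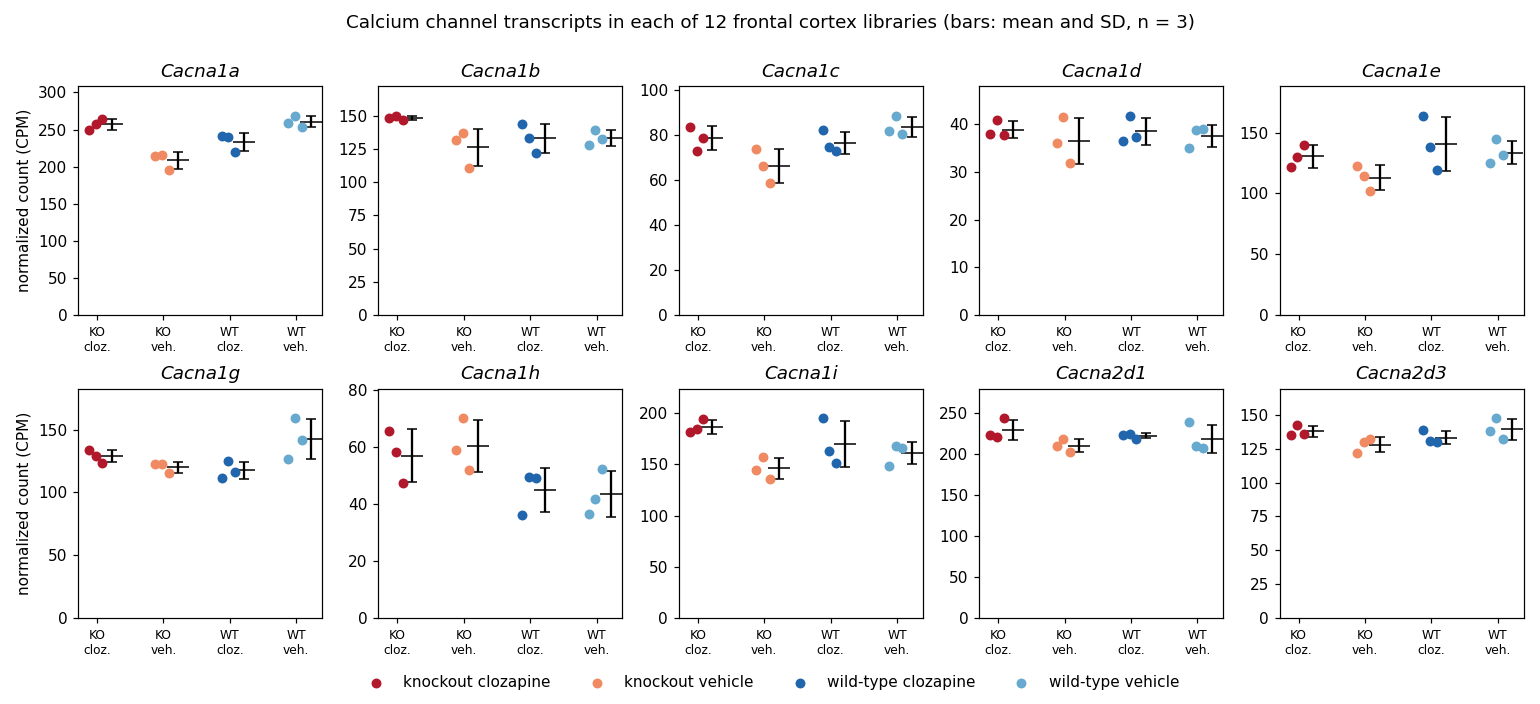
Normalized counts (CPM, vertical axes from 0) of the 10 genes in each library, 1 point per library, with the mean and SD of 3 libraries beside each group. Knockout vehicle is the lowest group for Cacna1a, at 195.9 to 215.6 CPM against 220.0 CPM or more in the other groups, and both knockout groups average higher than the wild-type groups for Cacna1h.

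Clozapine in the knockout was set against vehicle in the knockout, with the same knockout vehicle libraries as in the genotype comparison under vehicle. Cacna1a was at 249.2, 257.2 and 264.2 CPM in knockout clozapine and at 214.5, 215.6 and 195.9 CPM in knockout vehicle. The groups did not overlap, and the difference was 0.30 (SE 0.05, 95% interval 0.19 to 0.41), but it did not pass over all genes (edgeR adjusted p = 0.0674). Cacna1i, a T-type pore gene (ENSMUSG00000022416.15, chromosome 15, 80287238 to 80398279), was at 181.6, 184.7 and 194.3 CPM in knockout clozapine and at 145.0, 157.1 and 135.8 CPM in knockout vehicle. This was the largest difference of a member in that comparison, 0.36 (SE 0.08, edgeR adjusted p = 0.0967). Cacna1b was at 146.5 to 149.9 CPM in knockout clozapine against 110.4 to 136.9 CPM in knockout vehicle (difference 0.23, SE 0.07, edgeR adjusted p = 0.193), and Cacna1c was at 73.2 to 83.8 against 59.0 to 73.9 CPM (0.24, SE 0.08, edgeR adjusted p = 0.200).

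In the knockout 9 of 10 clozapine differences were positive, beside 49.3% of all tested genes, and the exception was Cacna1h at -0.08 (SE 0.18). The members' median was 0.17, beside 0.00 over all genes. For 6 members (Cacna1a, Cacna1b, Cacna1g, Cacna1i, Cacna2d1 and Cacna2d3) the 3 clozapine libraries all lay above the 3 vehicle libraries, which holds for 9.72% of all tested genes. Genes as long as the members had a median of 0.06 in the same comparison, with 68.7% positive, and after the length and GC correction the members' median was 0.08. The count passing was 0 by edgeR (0.0231% of all genes passed; 5 members and 12.2% of all genes had an unadjusted p under 0.05) and 0 by limma-voom, but 2 by DESeq2, Cacna1a (adjusted p = 0.000253) and Cacna1i (adjusted p = 0.00690). Cacna1a passed in edgeR when 1 of these was left out: wild-type vehicle 1 (adjusted p = 0.0448), library 2 of wild-type clozapine (0.0451), library 5 of the same group (0.0470) or knockout vehicle 4 (0.0485). Cacna1i passed without library 2 of wild-type clozapine (0.0451). Wild-type libraries enter the fit but are in neither group compared here. Without each of those named the difference of Cacna1a stayed at 0.30, and without library 2 of wild-type clozapine that of Cacna1i stayed at 0.36.

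With clozapine in wild type 5 of the 10 differences were positive and 5 negative, with a median of 0.01 beside 0.01 over all genes. Cacna1g was at 111.5, 125.1 and 116.2 CPM in wild-type clozapine and at 126.9, 158.8 and 141.6 CPM in wild-type vehicle, without overlap, and its difference of -0.28 (SE 0.07) did not pass (edgeR adjusted p = 0.0822). It passed without wild-type vehicle 1 (edgeR adjusted p = 0.0265) and was -0.19 without wild-type vehicle 3 (0.317). Cacna1a was at 241.2, 239.9 and 220.0 CPM in wild-type clozapine against 259.5, 268.5 and 254.1 CPM in wild-type vehicle, also without overlap, which 8.23% of all genes showed in this direction (difference -0.16, SE 0.05, edgeR adjusted p = 0.211; without wild-type vehicle 3 -0.14, adjusted p = 0.468). The alpha2delta genes lay close to their vehicle levels: Cacna2d1 had 222.3 ± 3.18 CPM in wild-type clozapine and 218.8 ± 17.1 CPM in wild-type vehicle (interval of the log2 difference -0.10 to 0.15), and Cacna2d3 had 133.2 ± 4.85 and 139.4 ± 7.53 CPM (-0.18 to 0.05). The count passing was 0 by edgeR, against 0.816% of all genes, with 2 members at an unadjusted p under 0.05 (11.6% of all genes), 0 by limma-voom and 1 by DESeq2 (Cacna1g, adjusted p = 0.0220).

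Averaged over both genotypes the clozapine count was also 0 by edgeR (0.150% of all genes passed), with 2 members at an unadjusted p under 0.05 beside 11.2% of all genes, 0 by limma-voom and 1 by DESeq2. That member was Cacna1i, with 178.3 CPM on average under clozapine and 153.4 CPM under vehicle, a difference of 0.22 (SE 0.06, edgeR adjusted p = 0.170, DESeq2 adjusted p = 0.0407).

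The interaction asks whether clozapine acted differently in the 2 genotypes, and Cacna1a was the member that passed. It is computed from the same 12 libraries as the comparisons above. Cacna1a averaged 256.9 ± 7.53 CPM in knockout clozapine and 208.7 ± 11.1 CPM in knockout vehicle, against 233.7 ± 11.9 CPM in wild-type clozapine and 260.7 ± 7.27 CPM in wild-type vehicle (SD, n = 3 each). The effect of clozapine in the knockout minus that in wild type was 0.46 (SE 0.08, 95% interval 0.30 to 0.62, edgeR adjusted p = 0.0150), and 0.654% of all genes passed, 0.526% in this direction. Leaving out wild-type vehicle 3 lost the call (edgeR adjusted p = 0.0502, value 0.44), as did leaving out knockout clozapine 5 (0.0555) and the length and GC correction (0.33, adjusted p = 0.0522). It passed in 18 of 22 alternatives and kept its sign in all 22.

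Among the other members the difference between the clozapine effects was 0.38 for Cacna1g (SE 0.10, edgeR adjusted p = 0.0942), 0.37 for Cacna1c (SE 0.11, 0.145) and 0.28 for Cacna1i (SE 0.12, 0.308), none past the threshold. An unadjusted p under 0.05 was reached by 6 members and by 13.6% of all genes. Cacna1g passed without wild-type vehicle 1 (edgeR adjusted p = 0.0397) and in DESeq2 (adjusted p = 0.0220), but was at 0.30 without wild-type vehicle 3 (edgeR adjusted p = 0.195) and 0.26 with the length and GC correction (0.179). Cacna1c passed with no low-count filter (edgeR adjusted p = 0.0331) and was at 0.33 without wild-type vehicle 3 (0.285) and 0.22 with the length and GC correction (0.312). In all, 9 of 10 members were positive, beside 48.5% of all genes and 63.5% of the genes as long as the members. Cacna1h, at -0.13 (SE 0.26), was the exception and the least precise. The members' median was 0.21, beside -0.01 over all genes and 0.07 over the genes as long as the members. After the length and GC correction 8 members were positive and 2 negative.

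**Figure D4:**
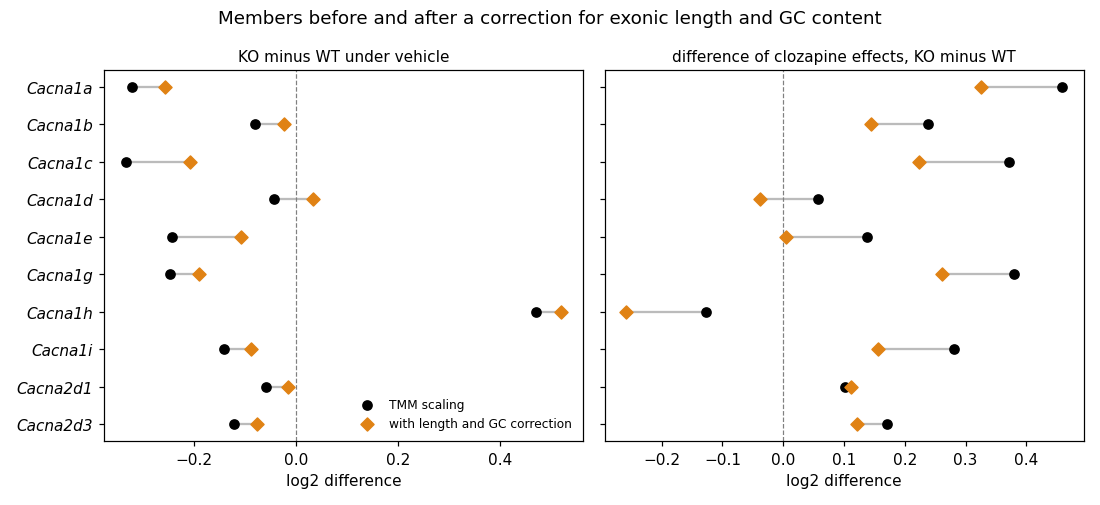
Log2 difference of each member before (circles) and after (diamonds) a correction of every library for exonic length and GC content, for knockout minus wild type under vehicle (left) and for the difference between the clozapine effects (right). Cacna1a moves to -0.26 and to 0.33 and keeps its sign in both, and the median of the 10 members moves to -0.08 and to 0.13.

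The genes whose profile over the 12 libraries was most like that of Cacna1a, by the root mean square difference of log2 CPM centred on each gene's mean, were Cic (0.0498), Rapgef1 (0.0522), Ttll11 (0.0531), Rab11fip3 (0.0559) and Mgat5 (0.0570). The median of this difference over 13233 genes was 0.177, and the spread of Cacna1a itself was 0.138.

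The accessory subunits and partners of these channels were described from 6 lists of other genes, with 44 tested genes in all. Under vehicle 3 of the 44 rose and 7 fell in the knockout, beside 4.01% and 5.15% of all tested genes. Without wild-type vehicle 3 the calls of Cacng4 (0.28, edgeR adjusted p = 0.209 without it), Cacng6 (1.28, 0.181), Slc8a3 (0.39, 0.0650), Cacnb1 (0.109), Cacnb4 (0.102), Rims2 (0.106) and Atp2a2 (0.148) were lost, and Cacng2, Rims1 and Atp2b2 still passed. Cacng6 was low, averaging 1.22 CPM in knockout vehicle and 0.505 CPM in wild-type vehicle, and its difference had an SE of 0.37. Under clozapine 2 rose and 0 fell, where 2.0% of all genes passed in either direction. The interaction had 1 rise and 0 falls (0.654% of all genes), clozapine in wild type 1 fall and 0 rises (0.816%), and clozapine in the knockout 0 of either by edgeR, with 10 at an unadjusted p under 0.05 beside 12.2% of all genes.

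Averaged over treatments 6 of the 44 rose in the knockout and 4 fell, where 10.5% of all genes passed. Those that rose were Cacna1s, Cacnb3, Cacng4, Cacng6, Slc8a2 and Slc8a3, and those that fell were Cacnb4, Cacng2, Rims1 and Atp2b2. Cacng4 rose by 0.29 (SE 0.06, edgeR adjusted p = 0.00621) and passed in all 22 alternatives. Of the 12 fits that left out 1 library, Cacng6 (0.93, edgeR adjusted p = 0.0317) passed in 6, Slc8a2 (0.26, 0.0329) in 4, Slc8a3 (0.27, 0.0288) in 4 and Atp2b2 (-0.17, 0.0462) in 4. The level of Cacng6 was low in every group, with means from 0.505 to 1.22 CPM. Slc8a2 and Slc8a3 encode sodium-calcium exchangers.

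Of the 4 beta subunit genes, whose proteins bind the pore from the cytoplasm and aid its traffic, Cacnb4 and Cacnb1 fell under vehicle. Cacnb4 was at 218.3, 226.8 and 216.6 CPM in knockout vehicle, against 277.0, 256.6 and 244.6 CPM in wild-type vehicle, without overlap (difference -0.23, SE 0.07, edgeR adjusted p = 0.0400). That call was lost in 6 of the 12 fits that left out 1 library, with adjusted p up to 0.161 (without wild-type vehicle 1), and with 1 surrogate variable (0.0651). Averaged over treatments Cacnb4 fell by 0.21 (SE 0.05, edgeR adjusted p = 0.00933) and passed without each library in turn. The call of Cacnb1 (-0.25, SE 0.08, edgeR adjusted p = 0.0486) was lost in 10 of the 12, with adjusted p up to 0.171 (without knockout vehicle 5). Cacnb3 was higher in the knockout under clozapine, at 448.9, 432.3 and 455.3 CPM in knockout clozapine against 393.3, 352.4 and 373.4 CPM in wild-type clozapine (0.26, SE 0.05, edgeR adjusted p = 0.0124). It no longer passed once wild-type clozapine 3 (0.0720) was left out, nor without knockout clozapine 3 (0.0732) or knockout clozapine 5 (0.0522), or with the length and GC correction (0.0815).

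The gamma family includes the TARPs, which mainly serve AMPA-type glutamate receptors. Its member Cacng2, which encodes stargazin, followed the same order of groups as Cacna1a. Cacng2 was at 118.2, 126.2 and 127.7 CPM in knockout clozapine and 116.8, 110.7 and 108.7 CPM in knockout vehicle, against 125.6, 120.1 and 115.2 CPM in wild-type clozapine and 153.7, 151.0 and 144.0 CPM in wild-type vehicle. The 3 wild-type vehicle libraries lay above all 9 others. Cacng2 fell by 0.42 in the knockout under vehicle (SE 0.05, edgeR adjusted p = 0.00021) and by 0.31 with clozapine in wild type (SE 0.05, edgeR adjusted p = 0.00897), 2 comparisons that share the wild-type vehicle libraries. Its interaction was 0.46 (SE 0.07, edgeR adjusted p = 0.0138). The first passed without each library in turn. The second was lost when wild-type vehicle 3 (edgeR adjusted p = 0.0572) or wild-type clozapine 5 (0.0607) was left out, and the interaction without knockout clozapine 5 (0.0555).

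Of 14 tested channel partners, 2 fell under vehicle and 0 rose, where 5.15% of all tested genes fell and 4.01% rose. Rims1, a scaffold of the presynaptic active zone that binds P/Q-type and N-type channels, was at 264.2, 256.7 and 233.2 CPM in knockout vehicle, against 331.7, 326.4 and 313.0 CPM in wild-type vehicle, without overlap (difference -0.37, SE 0.06, edgeR adjusted p = 0.00214, passing in all 23 alternatives). The other was its paralog Rims2 (-0.24, SE 0.07, edgeR adjusted p = 0.0357), whose call was lost in 4 of the 12 fits that left out 1 library, with adjusted p up to 0.149 (without knockout vehicle 5). Of 15 calcium pumps, exchangers and store channels, 1 rose and 2 fell under vehicle, beside the same shares of all genes. Atp2b2, a plasma membrane pump that removes calcium, was at 1029, 1001 and 888.1 CPM in knockout vehicle, against 1254, 1364 and 1231 CPM in wild-type vehicle (difference -0.40, SE 0.07, edgeR adjusted p = 0.00368, passing in all 23 alternatives). The other pore genes, Cacna1f and Cacna1s, averaged under 1 CPM in every group, with Cacna1s higher in the knockout averaged over treatments (0.71, SE 0.21, edgeR adjusted p = 0.0405). That call held in 7 of 21 alternatives, in 1 of 12 fits that left out 1 library and not in DESeq2 (adjusted p = 0.140). Of the alpha2delta genes not among the 10, Cacna2d2 averaged 34.3 to 38.2 CPM over the groups and did not pass in any comparison.

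In bulk tissue, fewer cells of a type and less RNA per cell cannot be told apart. Of 84 tested markers on 14 cell type lists, 3 rose and 4 fell in the knockout under vehicle, beside 4.01% and 5.15% of all tested genes. The summed level of 6 excitatory neuron markers was 8160 to 8923 CPM in knockout vehicle and 8683 to 9627 CPM in wild-type vehicle, 0 of 6 passing, and that of 6 upper-layer markers was 1053 to 1136 and 1118 to 1318 CPM, with 2 of 6 lower. Deep-layer markers summed to 199.8 to 261.3 CPM in knockout vehicle and 133.2 to 222.1 CPM in wild-type vehicle (1 of 8 higher). Interneuron markers summed to 979.4 to 1076 and 1058 to 1096 CPM (0 of 8), and thalamic markers, of a tissue where T-type genes are abundant, to 127.5 to 166.2 and 144.3 to 177.4 CPM (1 of 7 lower). The other passing markers were 1 striatal (lower), 1 olfactory bulb (higher) and 1 microglial (higher). In the interaction 1 upper-layer marker, Cux2, was higher (0.61, SE 0.09, edgeR adjusted p = 0.00799) and 1 deep-layer marker, Rprm, lower (-1.38, SE 0.25, edgeR adjusted p = 0.0424), and the median over the deep-layer markers was -0.44. The excitatory sums were 9275 to 9665 CPM in knockout clozapine against 8160 to 8923 CPM in knockout vehicle, and 8204 to 8482 CPM in wild-type clozapine against 8683 to 9627 CPM in wild-type vehicle. Neither pair overlapped, and the sum was higher with clozapine in the knockout and lower with clozapine in wild type, the directions seen for Cacna1a. A sum is set mostly by the most abundant markers. The median log2 difference over the 6 was 0.03 with clozapine in the knockout, -0.07 in wild type and 0.10 in the interaction. Of these 6 markers 0 passed in the interaction by edgeR, with 1 at an unadjusted p under 0.05. Between the genotypes under clozapine 2 of the 84 markers rose in the knockout, 1 excitatory and 1 upper-layer, and 0 fell. Over all genes 2.0% passed there in either direction. The excitatory sums of knockout clozapine lay above those of wild-type clozapine without overlap, while the median log2 difference over the 6 was 0.01. No listed marker was at 0 in all 12 libraries, and the part of these shifts in the results above was not tested.

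Antisense or neighbouring genes overlap 3 members on the other strand, and whether strand was used in counting is not stated. Chdh covers 589 of 12621 exonic bases of Cacna1d and averaged 2.91 CPM, Gm16183 covers 435 of 11418 bases of Cacna1a and averaged 0.684 CPM, and Tpsg1 covers 158 of 9763 bases of Cacna1h and averaged 0.0201 CPM.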

How the data were processed

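RNA was measured in 12 libraries. Per the labels' protocols the RNA was purified on RNeasy columns and sequenced from Illumina mRNA libraries, and per the submitters' processing notes the reads went through STAR 2.5.1b, GRCm38 and featureCounts 1.5.0. Each deposited value is an estimated count for 1 gene: 7.39% of them are not whole, how shared reads were divided is not stated, and they were rounded for the tests. Names and lengths came from GENCODE M21 (46488 of 47069 rows matched), starts from RefSeq.

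Genes passing edgeR's filterByExpr (17286, 99.9% of counts) were fitted in 1 model of 4 groups with edgeR 4.0.16 (R 4.3.3; TMM, robust quasi-likelihood), with BH adjustment over all of them and a threshold of 0.05, for 7 contrasts. Precision rests on the spread among libraries, estimated over all 4 groups with information shared over genes. CPM are TMM-scaled counts; TPM are counts over exonic length, with no test. Averages over treatments or genotypes weigh the groups equally.

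The 10 members and the lists of other genes and markers were chosen with earlier results of these data known. All members are named; of each list, up to 4 genes past the threshold may be named, and the 5 genes most like the member of smallest interaction p.

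Alternatives were DESeq2 1.42.0, limma-voom (limma 3.58.1), RLE factors, no low-count filter, a mean CPM of at least 1, only the groups compared, a replicate block, 1 surrogate variable (sva 3.50.0), a smooth length and GC correction (mgcv 1.9.3), unrounded counts, a threshold of 0.10 and leaving out each library. Applying them to list genes was added after seeing the data.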

Additional observations from a re-analysis of the deposited data

Results flagged for a closer look

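The effect of clozapine differed between the genotypes, by the test of the difference itself, for 1 of the 10 channel genes and for 1 gene of the accessory lists. For Cacna1a the effect in the knockout minus that in wild type was 0.458 on the log2 scale (edgeR adjusted p = 0.015, 18 of 22 alternatives past their threshold). For Cacng2 it was 0.461 (edgeR adjusted p = 0.0138, 20 of 22 alternatives). In both genes wild-type vehicle was the group of highest mean.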

How the results depend on the processing

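Of 1580 values of a member in a contrast under an alternative, 1535 stayed on the same side of the threshold, 31 newly passed and 14 no longer passed, and 0 of the called values changed sign. Values that passed in neither fit were counted as staying whatever their sign. The number of members passing moved as follows. For clozapine in wild type it was 0, and 1 with DESeq2, with no low-count filter and at a threshold of 0.10, and 0 to 1 without single libraries. For clozapine in the knockout it was 0, and 2 with DESeq2, 2 with no low-count filter, 2 at a threshold of 0.10 and 3 with the replicate block, and 0 to 2 without single libraries. For the knockout under vehicle it was 3, and 2 with only the groups compared, 2 with the replicate block and 2 with 1 surrogate variable. Without single libraries it was 1 to 3, with 1 left (Cacna1a) without wild-type vehicle 3 or knockout vehicle 5. For the interaction it was 1, and 2 with DESeq2, 3 with no low-count filter, 2 at a threshold of 0.10, 0 with the replicate block and 0 with the length and GC correction, and 0 to 2 without single libraries. Averaged over genotypes it was 0, and 1 with DESeq2; averaged over treatments it was 0, and 1 with DESeq2, 1 with no low-count filter, 2 at a threshold of 0.10 and 0 to 1 without single libraries. The cause of these moves was not tested. Counts over all genes moved as well: for clozapine in the knockout 4 genes passed, against 274 in DESeq2 and 213 with no low-count filter, and for the knockout under vehicle 1584, against 617 without wild-type vehicle 3, 837 without knockout vehicle 2 and 385 with the replicate block. No pairing by replicate number is stated. Correlations of deviations between libraries of different groups were -0.08 to 0.123 for the same number and -0.208 to 0.15 for different numbers. With 3 libraries per group these values cannot settle whether same-numbered libraries share an origin. The replicate block, under which the interaction of Cacna1a was 0.471 (adjusted p = 0.0907), joins libraries that share a number and no stated origin. With it Cacna1a (adjusted p = 0.0283), Cacna1i (0.0314) and Cacna1c (0.0476) passed for clozapine in the knockout, and calls were lost for, among others, Cacna1g (0.0529) and Cacnb4 (0.407) in the knockout under vehicle and for Cacng2 with clozapine in wild type (0.0766) and in the interaction (0.0648). The level per length moved beyond 1 SD for 7 of 10 members over the longest transcript and for 0 without single libraries.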
